A study of Mus musculus with 5 samples.

Results

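Fibroblast growth factors (FGFs), their receptors and the Klotho co-receptors were examined in whole hearts of female mice with and without lupus nephritis. The set comprised 10 genes: the ligands Fgf23, Fgf1 and Fgf13, the receptors Fgfr1, Fgfr2, Fgfr3 and Fgfr4, the adaptor Frs2, and the co-receptors Kl (Klotho) and Klb (beta-Klotho). Members were all probe sets whose platform annotation gave exactly one of these symbols, which yielded 23 of the 45037 non-control probe sets and covered 9 of the 10 genes. Frs2 had no probe set under its symbol in the annotation used and was not analysed here. One group was 3 NZB_W hearts, from mice of the NZB/W F1 cross with spontaneous lupus nephritis, aged 12 to 15 weeks, whose kidney injury was scored as moderate on the Austin scale. The other was 2 hearts of NZW mice, one of the parental strains of that cross, of similar age and with healthy kidneys. Animals received no treatment, and bleeding and perfusion with saline preceded collection of the hearts. Because no NZB_W mice without nephritis and no nephritic NZW mice were among the arrays, genotype and kidney disease cannot be told apart in any difference below. The replicates are biological according to their titles, and with 3 and 2 arrays a group the intervals given below are wide.

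FGFs bind receptor tyrosine kinases on the cell surface, and ligand binding leads through the adaptor FRS2 to the RAS-ERK cascade and through phospholipase C gamma to calcium and calcineurin signalling. Most FGFs act close to the cells that release them and bind heparan sulfate, whereas FGF23 is a hormone, made mainly by bone cells, that lowers renal phosphate reabsorption and vitamin D activation through an FGF receptor paired with Klotho in the kidney. FGF23 in plasma rises when kidney function falls, and it has been studied as a driver of cardiac hypertrophy through FGFR4 in cardiomyocytes, which lack appreciable Klotho. Fgf13 belongs to the FGF homologous factors, which stay inside the cell and modulate voltage-gated sodium channels.

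In these hearts no difference between NZB_W and NZW was detectable for the endocrine ligand, its co-receptors or any FGF receptor, although for Fgfr1 and Fgf13 the 95% intervals include changes of more than 2-fold. All probe sets of Fgf23, Kl and Klb and 3 of 5 for Fgfr4 lay below the array median on every array. Narrow intervals at such low levels are not read as a limit on the transcript. Of the 23 probe sets, 0 passed a Benjamini-Hochberg adjusted p of 0.05 in limma, over all 45037 probe sets, where 0.00444% (2 probe sets) passed. At an unadjusted p of 0.05 the count among members was also 0, against 4.02% of all probe sets. Differences were higher in NZB_W for 11 members, lower for 11 and 0 for 1, and ran from -0.27 to 0.18 on the log2 scale. The median absolute difference was 0.095, beside 0.077 over all probe sets, with median standard errors (SE) of 0.10 and 0.094. Adjusted p-values of the members lay between 0.877 and 1.0. A single member, an Fgfr4 probe set, had NZB_W and NZW values that did not overlap, against 12.3% of all probe sets.

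The files used hold no detection calls. Probe sets were therefore sorted by their position relative to the median of all probe sets on the same array. These medians lay between 4.62 and 4.68. The kidney markers Umod, Slc12a3 and Nphs1 exceeded the median on all 5 arrays, while Slc12a1 and Aqp2 lay below it on all 5. A place above the median is thus not read as detection of a transcript, and bright and dim below mean only above and below it. By this measure 11 member probe sets lay above the median on all 5 arrays, 11 below it on all 5, and 1 above it on 1 array. The share above on all arrays, 47.8%, was close to the 47.3% of all probe sets. The 11 above comprised the 3 probe sets of Fgf1, both of Fgf13, 2 of 3 for Fgfr1, 1 of 3 for Fgfr2, 1 of 2 for Fgfr3 and 2 of 5 for Fgfr4. The single Fgf23 probe set and all 4 for Kl and Klb lay below. Levels of different probe sets are not comparable with each other, because probes differ in affinity. Among the 11 probe sets above the median, 0 had non-overlapping groups, against 16.5% of all probe sets above the median on 5 arrays.

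**Figure D1:**
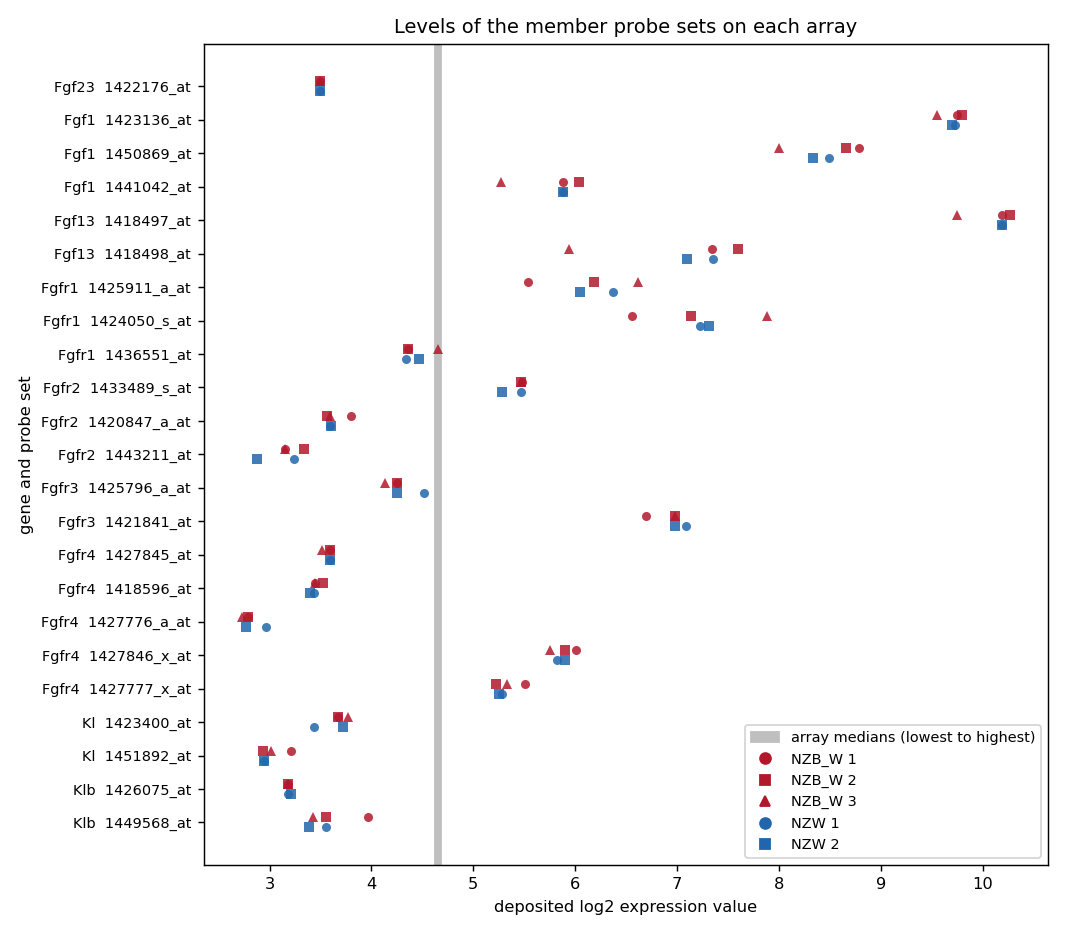
Deposited log2 values (x axis) of each member probe set (y axis) on the 3 NZB_W arrays (red) and the 2 NZW arrays (blue), with the range of the array medians as a grey band. Fgf23, Kl and Klb lie left of the band on every array, and the largest spread, 1.66 for Fgf13 (1418498_at), is between arrays of the NZB_W group.

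The sequences just before the annotated starts of the dim endocrine members and of Fgf13 are shown as context for these levels. They are the 100 bases upstream of RefSeq starts (GRCm38.p6), written 5′ to 3′ on the strand of the gene with each CpG dinucleotide in capitals. Fgf23 is the hormone whose probe set gave a single value on all arrays, Kl and Klb encode its co-receptor and the related co-receptor for FGF15 and FGF21, and for Fgf13, which has 4 annotated starts, the outermost pair is shown.
Fgf23 (chr6:127072802-127072901, plus strand): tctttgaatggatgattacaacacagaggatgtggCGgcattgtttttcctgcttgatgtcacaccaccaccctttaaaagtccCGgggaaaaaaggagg
Kl (chr5:150952507-150952606, plus strand): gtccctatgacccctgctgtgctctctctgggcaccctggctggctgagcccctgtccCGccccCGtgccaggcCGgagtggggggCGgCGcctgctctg
Klb (chr5:65348311-65348410, plus strand): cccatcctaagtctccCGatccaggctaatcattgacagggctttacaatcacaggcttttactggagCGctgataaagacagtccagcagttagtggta
Fgf13 (chrX:59585573-59585672, minus strand): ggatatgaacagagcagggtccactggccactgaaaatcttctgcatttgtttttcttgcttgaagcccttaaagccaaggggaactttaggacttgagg
Fgf13 (chrX:59134437-59134536, minus strand): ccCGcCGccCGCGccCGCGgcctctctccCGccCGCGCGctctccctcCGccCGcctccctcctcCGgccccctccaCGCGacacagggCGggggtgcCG

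Within the 250 bases before the start, the promoter table of 32851 entries had a median of 6 CpG dinucleotides. Fgf23 had 6, Klb 9 and Kl 13, whereas the 4 Fgf13 starts had 2, 6, 31 and 33. Fgfr2 had 2, Fgfr4 15, Frs2 19 and the 2 Fgfr3 starts 19 and 24. The 3 genes with every probe set below the array median thus lay between 6 and 13, inside the range of the others used. Fgf1 and Fgfr1, which had probe sets above the median on all arrays, had no promoter used and are not among the others. Member promoters on a single chromosome were left out before the count, while the table of all promoters kept that chromosome. The motif TATAAA, searched on both strands, was in 0 of the 12 member promoters used and in 12.4% of all promoters. The probe annotation does not say which Fgf13 start each probe set reads.

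Fgf23 (1422176_at) read 3.49 on all 5 arrays, identical to every deposited decimal. A single value across the arrays was found for 699 of the 45101 probe sets (1.55%, controls included), so that for Fgf23 the arrays hold no measured variation, and the interval of its difference, -0.092 to 0.092, comes from the spread that limma borrows from other probe sets. Of the other endocrine FGFs, Fgf15 and Fgf21, hormones of gut and liver that act through beta-Klotho, also lay below the array median on all 5 arrays. They differed by -0.043 (SE 0.053) and -0.033 (SE 0.039).

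Klotho, the FGF23 co-receptor of kidney tubules, was dim on both of its probe sets. Probe set 1423400_at read 3.67, 3.67 and 3.77 in NZB_W and 3.44 and 3.72 in NZW. On 1451892_at the values were 3.21, 2.93 and 3.01 against 2.94 and 2.94. The groups overlapped on both, with differences of 0.12 (95% interval -0.15 to 0.40) and 0.11 (-0.16 to 0.37). Beta-Klotho, which pairs with FGF receptors for FGF15 and FGF21, read 3.18 on 4 arrays and 3.21 on NZW array 2 with 1426075_at. Its other probe set, 1449568_at, read 3.96, 3.56 and 3.43 in NZB_W against 3.56 and 3.38 in NZW. That difference of 0.18 (-0.34 to 0.69) was the largest upward one among the members and was 0.021 without NZB_W array 1, which held the highest value.

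Fgfr4, the receptor studied for Klotho-independent FGF23 signalling in cardiomyocytes, was measured by 5 probe sets. Of these, 1418596_at, 1427776_a_at and 1427845_at lay below the array median on every array. The first gave the non-overlapping member, with 3.44, 3.52 and 3.44 in NZB_W and 3.43 and 3.40 in NZW. Its difference was 0.053 (SE 0.045, limma adjusted p = 0.877). The 95% interval reached 1.13-fold higher, which at this low level is not read as a limit on the transcript. The other 2 dim probe sets differed by -0.097 (SE 0.075) and -0.026 (SE 0.044). Above the median lay 1427846_x_at, with 6.01, 5.90 and 5.75 against 5.82 and 5.90, and 1427777_x_at, with 5.50, 5.22 and 5.33 against 5.29 and 5.26. Both overlapped between the groups, with differences of 0.027 (-0.22 to 0.28) and 0.080 (-0.19 to 0.35). Affymetrix uses the suffix _x_at for probe sets with probes that can match other transcripts, so the 2 that were bright may not report Fgfr4 alone.

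Fgfr1, the receptor that partners with Klotho in the kidney and is also made by fibroblasts and other mesenchymal cells, varied more between NZB_W hearts than between the groups. On 1424050_s_at the NZB_W arrays read 6.56, 7.14 and 7.88, and the NZW arrays 7.23 and 7.31. The NZB_W mean was 7.19 ± 0.665 (SD, n = 3) and the NZW mean 7.27 ± 0.0625 (SD, n = 2), a difference of -0.079 (SE 0.42, 95% interval -1.23 to 1.07). On 1425911_a_at the NZB_W values were 5.54, 6.18 and 6.62 and the NZW values 6.37 and 6.05, a difference of -0.099 (SE 0.36). NZB_W arrays 1 and 3 thus held the lowest and the highest value on both probe sets, with the NZW arrays between them. Leaving out NZB_W array 1 gave 0.24 and 0.19, and leaving out NZB_W array 3 gave -0.42 and -0.35, so the sign followed the arrays used. The third probe set, 1436551_at, read 4.36, 4.36 and 4.65 against 4.34 and 4.47, and exceeded the array median on NZB_W array 3 alone.

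Fgfr2, which with its splice forms serves epithelium and mesenchyme, had 1 probe set above the median. This probe set, 1433489_s_at, read 5.48, 5.47 and 5.47 in NZB_W and 5.47 and 5.29 in NZW, a difference of 0.095 (95% interval -0.089 to 0.28). NZW array 2 was the low value, and without it the difference was 0.0028. The dim Fgfr2 probe sets, 1420847_a_at and 1443211_at, differed by 0.053 and 0.15. Fgfr3, known for restraining growth of cartilage, read 6.69, 6.97 and 6.97 in NZB_W and 7.09 and 6.97 in NZW on 1421841_at. The difference was -0.15 (-0.46 to 0.16). The dim 1425796_a_at differed by -0.18 (-0.45 to 0.10), an interval not read as a limit on the transcript at this low level. These sizes depended on single arrays, since for 1421841_at omission of NZB_W array 1 gave -0.056 and omission of NZW array 1 gave -0.095, while for 1425796_a_at omission of NZW array 1 gave -0.039 and omission of NZW array 2 gave -0.31. Both Fgfr3 probe sets were lower in NZB_W and all 3 for Fgfr2 were higher, none past the threshold.

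**Figure D2:**
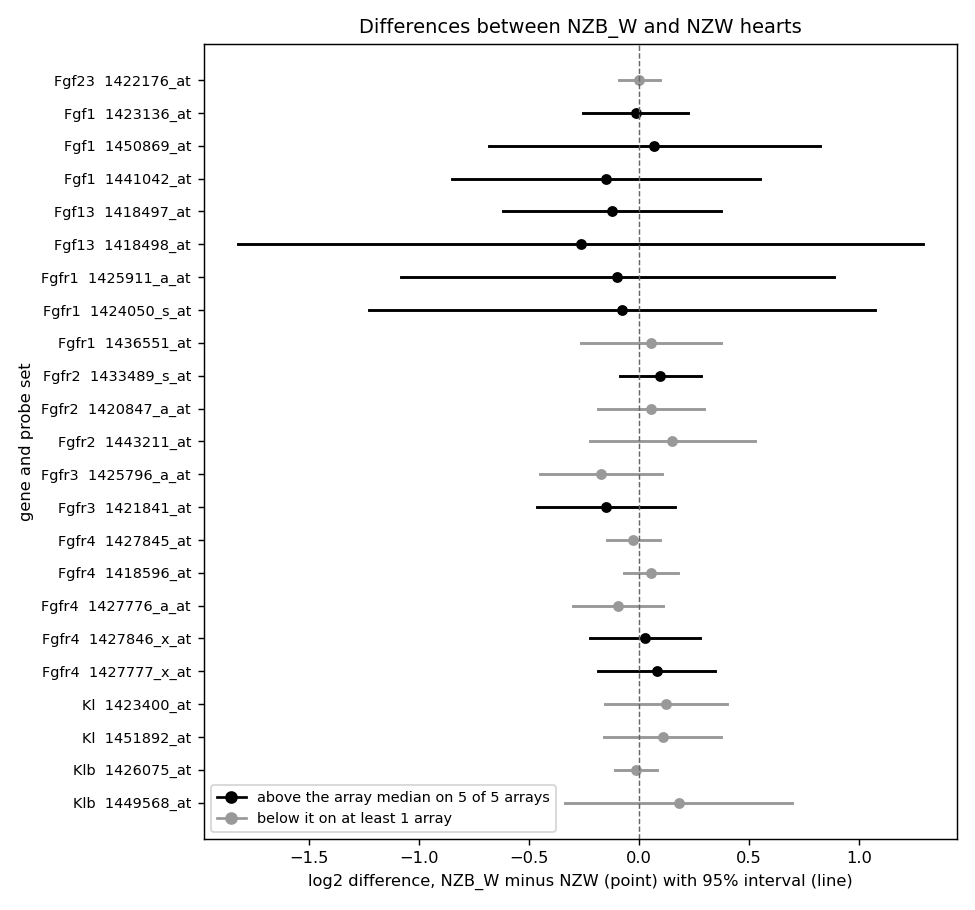
Log2 difference between NZB_W and NZW (x axis, points) with its 95% interval from limma (lines) for each member probe set (y axis), black where the probe set exceeded the array median on 5 arrays and grey otherwise. Every interval includes 0, and the widest, from -1.82 to 1.29, is that of Fgf13 (1418498_at).

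Fgf1, the heparin-binding acidic FGF that cardiomyocytes store and that binds all FGF receptors, was above the array median on its 3 probe sets. Its brightest, 1423136_at, read 9.75, 9.80 and 9.56 in NZB_W and 9.73 and 9.70 in NZW. The means were 9.70 ± 0.127 (SD, n = 3) and 9.72 ± 0.0187 (SD, n = 2), and the difference was -0.016 (SE 0.088), with a 95% interval that allows at most a 1.19-fold decrease or a 1.17-fold increase. On 1450869_at the values were 8.79, 8.66 and 8.0 against 8.49 and 8.33, and on 1441042_at they were 5.88, 6.04 and 5.28 against 5.88 and 5.88. Their 95% intervals were wider, from -0.68 to 0.82 for 1450869_at and from -0.85 to 0.55 for 1441042_at. On each of the 3 probe sets, NZB_W array 3 was the lowest of the 5 arrays. Without it, the 3 differences were 0.056, 0.31 and 0.078, compared with -0.016, 0.069 and -0.15 on all arrays.

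Fgf13, the sodium channel partner, was also lowest on NZB_W array 3 on both of its probe sets. Probe set 1418497_at read 10.19, 10.27 and 9.74 in NZB_W and 10.19 on both NZW arrays, a difference of -0.12 (SE 0.18, 95% interval -0.62 to 0.37). On 1418498_at the NZB_W values were 7.34, 7.60 and 5.94 and the NZW values 7.36 and 7.10. Here NZB_W array 3 was more than 1 unit under each of the other arrays, and the difference of -0.27 (SE 0.57) had an interval from -1.82 to 1.29. Without that array the 2 differences were 0.038 and 0.24. Hence the lower NZB_W means of Fgf13 rested on 1 array, and the interval of 1418498_at allows a change of up to 3.54-fold down or 2.45-fold up.

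The array that carried the low Fgf1 and Fgf13 values and the high Fgfr1 values also had the extreme values of several cell type marker lists. Lists of marker genes were summarised by the median deviation of their genes from the 5-array mean. The 6 fibroblast markers gave -0.45, -0.23 and 0.79 for NZB_W replicates 1 to 3, and for NZW they gave -0.090 and -0.053, so NZB_W arrays 1 and 3 were the extremes as they were for Fgfr1. The fibroblast list was split on NZB_W array 3, where the collagens Col1a1, Col1a2 and Col3a1 deviated by 1.86, 1.66 and 1.38, whereas Pdgfra, Dcn and Tcf21 deviated by 0.20, 0.16 and -0.074. The median of 0.79 lies between these and is the value of no single marker. For 7 cardiomyocyte markers it was -0.0058, 0.043 and -0.094 against 0.029 and 0.015, lowest on NZB_W array 3 as were Fgf1 and Fgf13, with 5 of 7 genes lowest there and Ryr2 above its mean at 0.095. The log2 sum of the linear levels ranged from 13.04 to 14.10 in NZB_W and from 13.29 to 13.41 in NZW for fibroblast markers, and from 16.59 to 16.69 and 16.68 to 16.69 for cardiomyocyte markers; every marker of both lists exceeded the array median on all arrays. Endothelial, smooth muscle and macrophage lists were highest on NZB_W array 3, at 0.29, 0.51 and 0.77. Beta-actin control probe sets at the 5′ end read lower than those at the 3′ end on every array, by a log2 gap of -1.31 for NZB_W replicate 3, -1.19 for NZW replicate 2 and -0.88 to -0.89 for the rest, so that NZB_W replicate 3 and NZW replicate 2 were both low. The same gap for Gapdh was 0.17, 0.11 and -0.16 in NZB_W and 0.15 and 0.048 in NZW. The part of cell makeup and of RNA integrity in the Fgf1, Fgf13 and Fgfr1 values was not tested; in whole hearts, fewer cells of a type and less RNA per cell cannot be told apart.

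**Figure D3:**
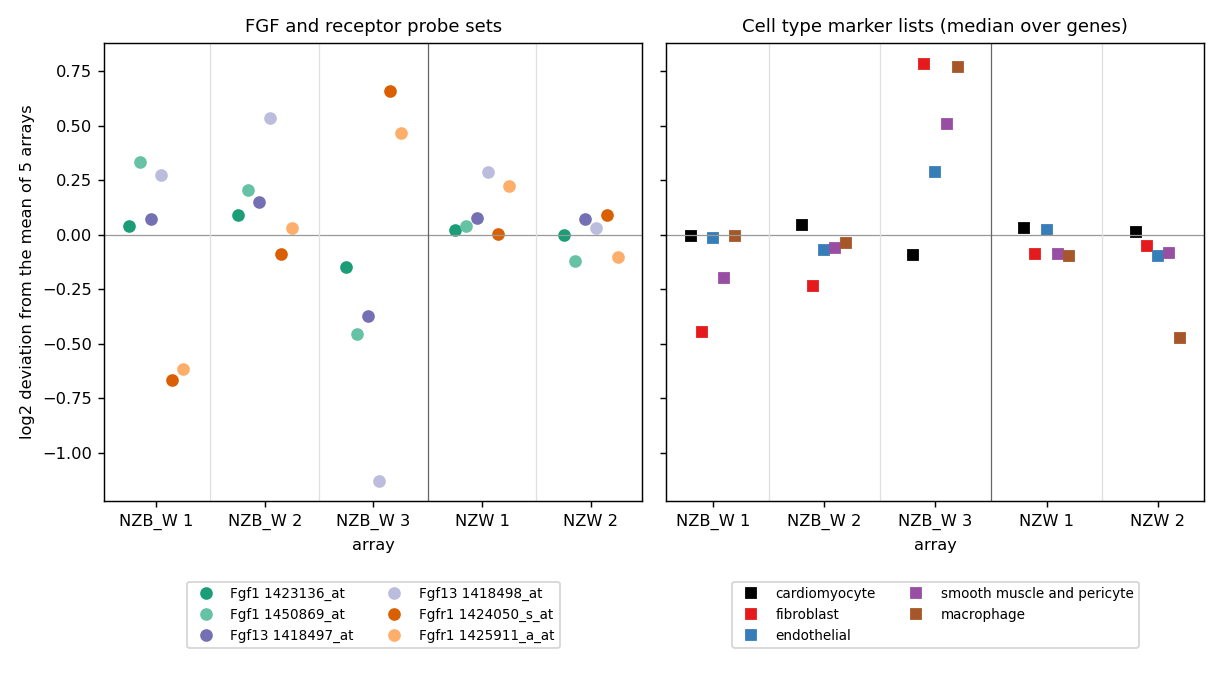
Log2 deviation from the mean of the 5 arrays (y axis) on each array (x axis) for 6 probe sets of Fgf1, Fgf13 and Fgfr1 (left) and for the median of 5 cell type marker lists (right). On NZB_W array 3 the Fgf1 and Fgf13 points lie below 0 and the Fgfr1 points above it, where the list medians are 0.79 for fibroblast markers (collagens higher, Tcf21 below 0) and 0.77 for macrophage markers.

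Markers bearing on the tissue and on the sources of the hormone axis were read in the same way. All 7 cardiomyocyte markers were above the array median on every array. Markers of bone, kidney and liver were mixed, so a place above the median does not by itself show that a transcript is present. Of 4 bone cell markers, Dmp1 and Phex were below the median on every array, Sp7 was above it on all 5 and Sost on 1. Of 6 kidney markers, Slc12a1 and Aqp2 were below on every array, Umod, Slc12a3 and Nphs1 above on all 5 and Calb1 on 2. Of 4 hepatocyte markers, Alb was below on every array, Ttr and Cyp2e1 were above on all 5 and Apoa1 on 4.

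Genes around the members were then read from lists for the pathway, each gene being represented by its brightest probe set. Over the 10 lists, 0 genes passed the adjusted threshold in limma, and 4 passed an unadjusted p of 0.05 among the 112 different probe sets involved, against 4.57% of all 18193 genes read this way. Groups did not overlap for 14.1% of all genes, which is the background for the counts that follow.

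Of 17 paracrine and intracellular FGFs besides the members, 3 (Fgf6, Fgf9 and Fgf18) exceeded the median on all arrays and 8 lay below it on all. The median difference was 0.0. Fgf12 varied widely within both groups, with 4.70, 4.58 and 6.56 in NZB_W and 7.06 and 4.57 in NZW. Its difference was -0.54 (SE 1.05, 95% interval -3.42 to 2.34). Fgf7, a mesenchymal ligand for the epithelial form of FGFR2, read 4.65, 5.29 and 5.10 in NZB_W and 5.81 and 5.46 in NZW on 1438405_at, without overlap, a difference of -0.63 (SE 0.24, adjusted p = 0.877). Its other probe set, 1422243_at, differed by -0.078 (SE 0.060). Fgf22 was the other ligand without overlap, at -0.19 (SE 0.097). Of 9 extracellular modulators and receptor-like proteins, 8 were lower and 1 higher, with a median of -0.036, and all overlapped between groups.

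Signalling components inside the cell, Trpc6 excepted, were above the array median on all arrays. All 18 adaptors and effectors were bright, 8 higher and 10 lower, with a median difference of -0.020, which became 0.043 without NZB_W array 1 and -0.040 without NZB_W array 3. Plcg2, a phospholipase C gamma that is prominent in blood cells, did not overlap, at 0.34 (SE 0.17), with 0.16 on omitting NZW array 1 and 0.53 on omitting NZW array 2. Macrophage markers were higher in NZB_W for 6 of 6 genes, 3 of them without overlap, and their part in this value was not tested. The RAS-ERK cascade, for which 7 of 14 listed genes had a probe set with 1 symbol, had a median of -0.0051 with 3 higher and 4 lower. In the calcineurin-NFAT branch, 5 of 11 genes were higher and 6 lower, with a median of -0.049, and all overlapped. Omitting NZB_W array 1 turned that median to 0.005 and omitting NZB_W array 3 to -0.11, while omission of NZW array 1 or 2 gave 0.0 and -0.0041, so its sign and size followed the arrays used. For comparison, the median over all genes was -0.0012.

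Feedback inhibitors and transcriptional targets of FGF-ERK signalling were mostly higher in NZB_W hearts by count, although no gene passed. Of 17 genes, 14 were higher and 3 lower, with a median difference of 0.13, and in 5 (Dusp6, Ccnd1, Etv5, Dusp5 and Spred2) every NZB_W array exceeded both NZW arrays. Dusp6, the phosphatase that inactivates ERK and is transcribed in response to it, read 7.97, 8.15 and 8.59 in NZB_W and 7.52 and 7.29 in NZW. It was 1.78-fold higher, a log2 difference of 0.83 (SE 0.22, unadjusted p = 0.0165 and adjusted p = 0.877 in limma). Without NZB_W array 3 and NZW array 2 together, its difference was 0.54.

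The ETS transcription factor Etv5, another immediate product of FGF signalling, read 6.96, 6.95 and 7.17 against 6.42 and 6.76 on 1428142_at, a difference of 0.44 (SE 0.14). Its probe set 1450082_s_at also did not overlap, at 0.31 (SE 0.084), while the dim 1420998_at overlapped, at 0.13 (SE 0.20). Without NZW array 1 the Etv5 difference was 0.27. Dusp5, a nuclear ERK phosphatase, read 6.66, 6.59 and 6.75 against 6.47 and 6.49, a difference of 0.19 (SE 0.062). The Sprouty genes, which encode inhibitors of receptor tyrosine kinase signalling, were mixed, with Spry1 at 0.14 (SE 0.15), Spry2 at -0.23 (SE 0.22) and Spry4 at 0.41 (SE 0.19), all overlapping.

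Egr1 and Ccnd1 were highest on NZB_W array 3, at 9.84 and 9.65 against at most 8.56 and 8.94 on the other arrays. The list's median was 0.090 without NZB_W array 3, with 12 of 17 higher, and 0.092 with 13 of 17 higher without NZB_W array 3 and NZW array 2 together. Without NZW array 1 it was 0.076, with 13 of 17 higher. Endothelial and macrophage marker medians, given above, were highest on NZB_W array 3. Erythroid markers had median deviations of 1.34, -0.46 and 1.75 in NZB_W and -1.22 and -1.41 in NZW, with log2 summed levels of 8.11 to 10.49 and 7.19 to 7.39, and 3 of 3 did not overlap. The part of these cell types in the target genes was not tested.

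**Figure D4:**
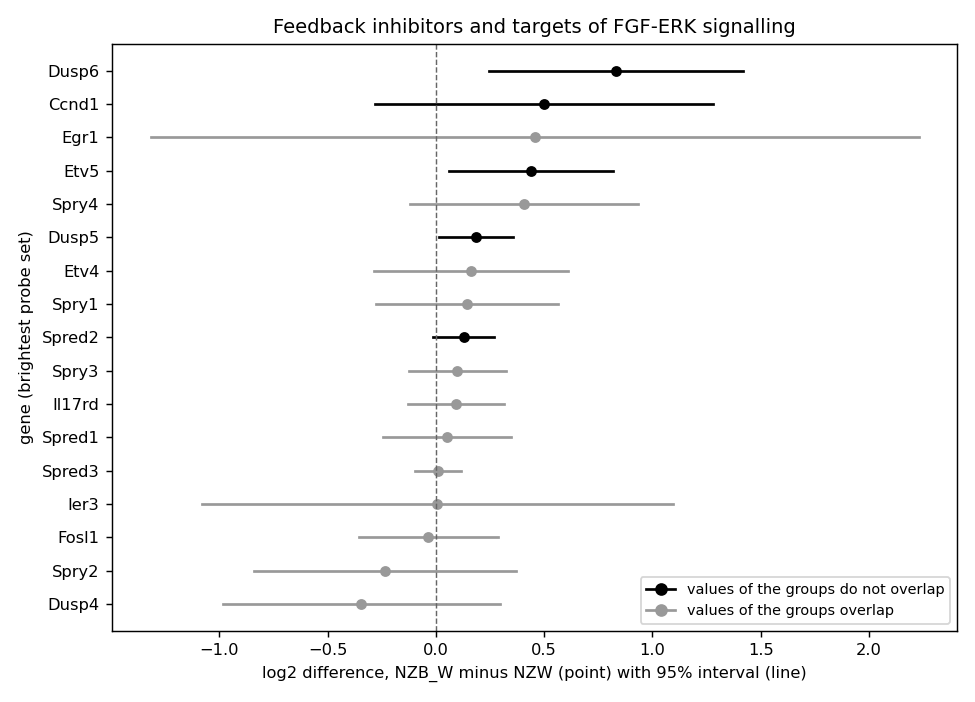
Log2 difference between NZB_W and NZW (x axis, points) with its 95% interval from limma (lines) for 17 feedback inhibitors and targets of FGF-ERK signalling (y axis), black where the groups do not overlap. The points of 14 genes lie right of 0, with Dusp6 at 0.83, and none passed the adjusted threshold.

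Hypertrophy markers, the read-out usually set beside cardiac FGF23 signalling, were unequal. Of 10 genes, 5 were higher and 5 lower. Acta1, the skeletal alpha-actin of the fetal gene programme, read 11.86, 12.09 and 12.98 in NZB_W and 11.18 and 11.35 in NZW, without overlap, a 2.06-fold difference (1.05, SE 0.38, unadjusted p = 0.0478 and adjusted p = 0.877 in limma). It was 0.71 without NZB_W array 3. Myh7, the beta myosin heavy chain of the fetal programme, had the largest difference of the list, with 13.33, 12.32 and 13.86 in NZB_W and 10.70 and 12.24 in NZW (1.70, SE 0.69). It was 0.94 without NZW array 1, the array with the lowest value. Myh6, the adult alpha chain, differed by -0.11 (SE 0.045) and the stretch-response gene Ankrd1 by 0.17 (SE 0.080), both without overlap. Myh6 read 14.09 to 14.25, close to the highest values of the arrays, 14.24 to 14.33, so its small difference is not read as a limit on the transcript. The transcription factor Mef2c read 8.53, 8.79 and 9.09 in NZB_W and 9.05 and 9.79 in NZW, with overlap (-0.62, SE 0.30). Omitting NZW array 2 gave -0.24, and omitting NZW array 1 gave -0.99. The natriuretic peptide Nppb differed by 0.38 (SE 0.23), with overlap. Omitting NZB_W array 3 gave 0.23, omitting NZW array 1 gave 0.13 and omitting NZW array 2 gave 0.63. Nppa differed by 0.24 (SE 0.40), also with overlap, and ran from -0.22 without NZW array 2 to 0.71 without NZW array 1. Mef2a, Gata4 and Nfatc3, the remaining lower genes, differed by -0.026, -0.047 and -0.15, all overlapping.

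Genes of FGF23 production, phosphate and vitamin D handling were mixed, with 10 of 17 higher. The phosphate transporter Slc20a2 read 9.53, 9.68 and 9.32 in NZB_W and 9.74 and 9.87 in NZW, a difference of -0.30 (SE 0.13), and its other probe set, 1451768_a_at, overlapped at -0.38 (SE 0.38). Slc34a2, a sodium-phosphate cotransporter, differed by 0.17 (SE 0.070) and the sheddase Adam17 by 0.20 (SE 0.14), both without overlap. Among 5 measured sodium channel partners of FGF13, the channel subunit Scn4b read 6.26, 6.71 and 5.91 against 6.94 and 6.79, a difference of -0.58 (SE 0.26), without overlap. Like Fgf13, it was lowest on NZB_W array 3. Neither passed the threshold.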

How the data were processed

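The deposited values are on a log2 scale, 1 per probe set and array, summarised and normalized by the authors. Per the submitters' processing notes the tools were among RMA, GCRMA and Partek, with no role or version; no genome build for the probes is given in these sources. The deposited log2 values run from 1.91 to 14.3 with nearly equal quartiles, and 63.0% of probe sets repeat a value on some of the 5 arrays. All 5 columns match a sample.

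Groups and replicate numbers come from titles. Probe sets were named from the platform annotation (34958 with 1 symbol, 932 with several, 9211 with none). Members, lists and tests were chosen with earlier results of these data known. The 64 control probe sets were left out, and 45037 were fitted with limma 3.58.1 in R 4.3.3 (lmFit, eBayes, two-sided, no covariates or filter), with Benjamini-Hochberg adjustment over all of them. The script was tested on simulated data. Residual and prior degrees of freedom were 3 and 1.19. Beside members, the naming rule took up to 4 genes per list with an unadjusted p under 0.05, or else the 2 smallest. Fgf6, Fgf9, Fgf12, Fgf18, Spry1, Spry2, Spry4, Spred2, Ccnd1, Egr1, Nppa, Nppb, Myh7, Ankrd1, Mef2a, Mef2c, Gata4, Nfatc3 and Adam17 were named outside it after their values were seen. Promoter sequences are RefSeq's for GRCm38.p6; 8 of the 10 genes had an entry used. Alternatives covered filters, normalization, variance models, the choice of probe set and left-out arrays. Figures used matplotlib 3.10.9.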

Additional observations from a re-analysis of the deposited data

How the results depend on the processing

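With 3 arrays against 2, no member probe set and no gene of the pathway lists passed the adjusted threshold under any alternative run. The 2 probe sets that passed among all became 5 with either filter on dim probe sets, 5 with quantile normalization, 6 with median centring, 4 with array weights, 1 with the brightest probe set per gene, 0 with the mean of a gene's probe sets, and 5 at an adjusted p of 0.1. They were 0 to 0 with any array left out and 0 when NZB_W array 3 and NZW array 2 were both omitted. Members without overlap, 1 of 23 in the report, numbered 0 with either filter and at gene level, 3 with quantile normalization and 2 with median centring. They numbered 1 to 6 with an array left out (fewer arrays overlap less) and 11 without both arrays. The share of all features without overlap rose too. It was 12.29% in the report, 16.51% and 16.62% with the filters, and 14.12% and 16.64% at gene level. Quantile normalization gave 18.85% and median centring 18.43%. The share was 19.75% to 43.02% with an array left out and 49.42% without both arrays. Of 308 recomputed member differences, 32 changed sign, in 13 probe sets, and 276 did not. The 276 are no measure of stability, because several runs could not alter a difference. These were both filters, the intensity trend, the brightest probe set per gene and the run without _s_at, _x_at or _a_at probe sets. Fgf23, at 0.0 in the report, had no sign to change. Fgf1 1423136_at gave 0.0062 with quantile normalization, 0.039 with array weights, 0.043 without both arrays and -0.066 to 0.056 with an array left out; Fgf1 1450869_at gave -0.085 to 0.31 and Fgf1 1441042_at -0.30 to 0.078, with 0.021 under array weights and 0.078 without both. Fgf13 1418497_at gave -0.22 to 0.038 and 0.036 without both, and Fgf13 1418498_at -0.59 to 0.24, 0.096 with weights and 0.12 without both. With an array left out, Fgfr1 1425911_a_at ran from -0.35 to 0.19, 1424050_s_at from -0.42 to 0.24 and 1436551_at from -0.042 to 0.12 (-0.0023 with weights). Likewise Fgfr2 1420847_a_at ran from -0.022 to 0.098, Fgfr2 1443211_at from -0.031 to 0.33, Fgfr4 1427776_a_at from -0.20 to 0.0038, Fgfr4 1427846_x_at from -0.034 to 0.094 and Kl 1423400_at from -0.018 to 0.26. Outside the members, Ksr1 changed sign (0.026 as a mean of probe sets, -0.32 to 0.14 with an array left out). Median centring left 12 of 17 FGF-ERK targets higher. The cause of these changes was not tested.

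With the replicate number as a block, 0 probe sets passed, and Fgf1 1423136_at, Fgf1 1441042_at, Fgf13 1418497_at, Fgf13 1418498_at and Fgfr1 1436551_at gave 0.056, 0.078, 0.038, 0.24 and -0.042. NZB_W array 3 has no NZW partner, so these equal the values without it. Only 2 numbers are shared, and the titles state no pairing, so the numbers were not taken as pairs. Same-numbered arrays' deviations from their group means correlated at -0.013 and 0.028. These values cannot decide on pairing, because the deviations of 2 NZW arrays from their mean mirror each other.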
